A study of Mus musculus with 6 samples.

Results

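Prrx1, Hand2, Foxf1 and Pdgfra are 4 genes of lateral mesoderm and mesenchyme that were followed here in the presomitic mesoderm (PSM) of mouse embryos. They were chosen because earlier results of these data had shown lower values in mutant pools, so the difference between genotypes is given for them as a description, with no test. Every probe set annotated to exactly 1 of the 4 symbols was included, which gave 9 of the probe sets in the deposited table, for 4 of its 10290 genes with a symbol of their own: 3 for Prrx1, 2 for Hand2, 1 for Foxf1 and 3 for Pdgfra. The anterior PSM, the unsegmented tissue beside the neural tube that buds off somites, was dissected at embryonic day 8.75 on a C57BL6/6J background, and its RNA was hybridized to Affymetrix 3' expression arrays. The mutant genotype was R26R AC/AC;T-Cre and the control genotype R26R AC/AC, so both carried 2 copies of the AC allele at the ROSA26 locus and differed by T-Cre. There were 3 pools per genotype, each of 3 PSMs, and the labels call them biological replicates. In T-Cre the recombinase is under control of the T (Brachyury) promoter, which works in the primitive streak and in mesoderm leaving it. The labels do not spell out AC, which from what is known of the study stands for A-CREB, a protein that blocks DNA binding by CREB family factors. No pool carried T-Cre without the AC allele, so effects of Cre and of AC cannot be told apart, and a probe for the AC transcript was not analysed here.

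As background, lateral plate mesoderm lies beside the paraxial mesoderm and forms the heart, the limb bud mesenchyme, the body wall and the muscle and connective tissue of the gut. Prrx1 is a homeobox transcription factor of limb and head mesenchyme. Hand2 is a basic helix-loop-helix factor of heart, limb and branchial arch. Foxf1 is a forkhead factor of the splanchnic layer, which forms the muscle and connective tissue of the gut, and responds to Hedgehog signalling. Pdgfra, the receptor tyrosine kinase for the platelet-derived growth factors PDGF-A and PDGF-C, is carried widely by mesenchyme and also by paraxial mesoderm, so it does not mark lateral mesoderm alone.

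The series is titled after the CREB family, whose members bind the cAMP response element TGACGTCA or its half-site TGACG, read as CGTCA on the other strand. The 250 bases before the RefSeq start in GRCm38.p6 are shown for the 3 genes with an entry, since these genes were lower together, with half-sites in capitals. They lie at chr1:163313651-163313900 on the minus strand for Prrx1, at chr8:57320733-57320982 on the plus strand for Hand2 and at chr5:75152001-75152250 on the plus strand for Pdgfra, and each is written 5′ to 3′ on the gene's strand. No entry was matched for Foxf1.
Prrx1: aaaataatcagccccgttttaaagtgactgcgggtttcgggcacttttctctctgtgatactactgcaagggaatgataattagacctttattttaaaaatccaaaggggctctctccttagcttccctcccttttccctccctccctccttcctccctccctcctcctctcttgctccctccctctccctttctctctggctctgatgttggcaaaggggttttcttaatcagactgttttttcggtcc
Hand2: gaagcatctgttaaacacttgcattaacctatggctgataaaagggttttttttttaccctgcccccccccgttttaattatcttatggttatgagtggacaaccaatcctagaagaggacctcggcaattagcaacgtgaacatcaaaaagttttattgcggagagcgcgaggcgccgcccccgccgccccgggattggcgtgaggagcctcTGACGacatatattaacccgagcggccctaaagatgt
Pdgfra: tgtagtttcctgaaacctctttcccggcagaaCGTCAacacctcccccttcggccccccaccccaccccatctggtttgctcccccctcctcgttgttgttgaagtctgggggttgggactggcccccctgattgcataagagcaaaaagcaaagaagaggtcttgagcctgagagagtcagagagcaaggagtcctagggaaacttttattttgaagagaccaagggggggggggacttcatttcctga

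The full element was in none of these windows and in 1.55% of 32851 RefSeq windows of the same length. Hand2 held 1 half-site, at 37 to 33 bases before its start, and Pdgfra held 1 at 218 to 214 bases before its start, while the Prrx1 window held none. A half-site was in 17.8% of all windows, counting both strands and including those inside a full element. The Prrx1 window was rich in pyrimidines: C and T made up 67.6% of its strand, a share above that of 99.2% of all windows, whose median was 50%. Matches of letters are descriptions of sequence and say nothing of binding.

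Values are the authors' scaled linear signals, and differences are mutant minus control means of log2(signal + 1), each with a standard error (SE) from limma. For each gene the probe set with the highest mean log2 signal is called its main probe set. The 4 main probe sets had a mean log2 signal at or above the 40th percentile of all probe sets, a geometric mean signal of 349, and the other 5 lay below it. Of the 9 probe sets, 5 had all 3 mutant values below all 3 control values, a pattern seen in 8.19% of the 19551 probe sets that are not array controls. One of the 5 is the second Prrx1 probe set, which lies below the filter, where 4.74% of probe sets had that pattern. Nothing is read from that count, because the genes were chosen on this contrast.

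The Prrx1 main probe set read 296.6, 317.4 and 320.6 in mutant pools 1, 2 and 3, against 884.3, 684.3 and 782.4 in control pools 1, 2 and 3. The mutant pools lay close together, and the highest of them was below the lowest control pool, which was 2.13 times as high. The means were 311.5 ± 13.0 in mutant and 783.6 ± 100 in control (SD, n = 3 pools each). The mutant level was 40% of the control level, a log2 difference of −1.32 (SE 0.15). The mutant pools lay below the signal at the filter, which this probe set passed through its control pools.

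A second Prrx1 probe set, below the filter, read 167.3, 184.7 and 197.4 in mutant pools and 316.1, 321.8 and 314.7 in control pools, a log2 difference of −0.79 (SE 0.16). Its groups did not overlap either, and its control pools spanned a narrow range. The third Prrx1 probe set was dimmer, with 105.5, 121.0 and 141.4 in mutant pools and 158.7, 97.71 and 112.9 in control pools. Its groups overlapped (0.01, SE 0.24).

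Hand2 was measured above the filter by 1 probe set, which read 885.8, 1260 and 1254 in mutant pools, against 2171, 2271 and 2047 in control pools. Mutant pool 1 stood below the other mutant pools, and all 3 were below the control pools. The mean signal was 1133 ± 214 in mutant and 2163 ± 112 in control (SD, n = 3 pools each), a log2 difference of −0.95 (SE 0.15), or 51.8% of the control level. The other Hand2 probe set was near the bottom of the range, at the 6.97th percentile of mean signal, with 106.4, 66.93 and 79.35 in mutant pools and 65.09, 81.38 and 72.88 in control pools. These overlapped, with a positive estimate of 0.18 (SE 0.24).

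The single Foxf1 probe set read 988.3, 1082 and 1424 in mutant pools, against 1921, 2004 and 2398 in control pools. Pool 3 was the highest in both genotypes, and the groups did not overlap, with the lowest control pool 1.35 times the highest mutant pool. The mean was 1165 ± 229 in mutant and 2108 ± 255 in control (SD, n = 3 pools each), a log2 difference of −0.87 (SE 0.16), or 54.9% of the control level. No other probe set was annotated to this gene alone in the table used.

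The Pdgfra main probe set read 1441, 1488 and 1673 in mutant pools, against 3129, 3318 and 2934 in control pools. Both groups were narrow and well apart, with means of 1534 ± 123 in mutant and 3127 ± 192 in control (SD, n = 3 pools each). The log2 difference was −1.03 (SE 0.11), the smallest standard error of the 4 genes, and the mutant level was 49.0% of the control level. Its other 2 probe sets were dim and overlapped. One read 153.0, 200.5 and 201.4 in mutant pools and 226.2, 183.8 and 246.9 in control pools (−0.24, SE 0.20). The other read 99.34, 88.96 and 104.5 in mutant pools and 137.6, 124.3 and 98.78 in control pools (−0.29, SE 0.21).

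**Figure D1:**
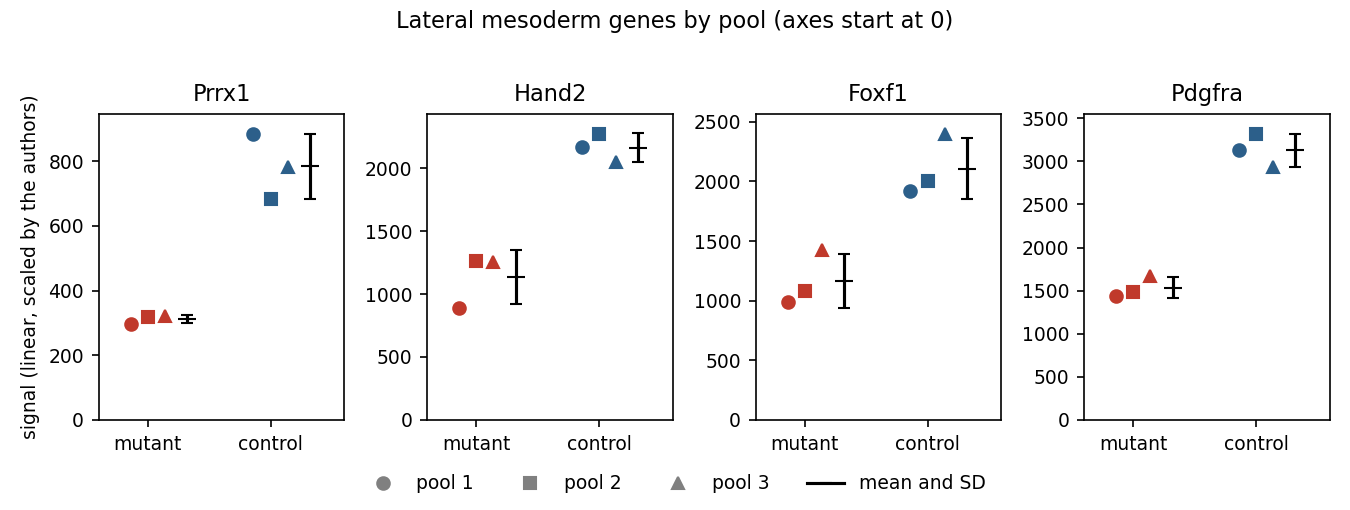
Signal of the main probe set of Prrx1, Hand2, Foxf1 and Pdgfra in each pool, on linear axes that start at 0, with mutant pools left of control pools and the mean and SD beside them (n = 3). In each gene the 3 mutant pools lie below the 3 control pools, and Prrx1 mutant pools lie between 296.6 and 320.6.

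The arrays differed in the ratio of 3' to 5' signal of the spiked dap transcript, which was 23.8, 19.6 and 10.2 in mutant pools 1, 2 and 3 and 22.9, 12.2 and 11.1 in control pools 1, 2 and 3. Mutant 1, mutant 2 and control 1 are called high-ratio arrays here. Within the high-ratio arrays the log2 difference was −1.52 for Prrx1, −1.04 for Hand2, −0.89 for Foxf1 and −1.09 for Pdgfra. Within the other 3 arrays, of 1 mutant and 2 control pools, it was −1.19, −0.78, −0.62 and −0.90 in the same order. The sign of the main probe sets could not turn in either set, because their genotypes did not overlap, so nothing is read from it. Each difference was smaller in size in the second set. The third Prrx1 probe set had −0.49 in the high-ratio set and 0.43 in the other, so its sign turned. In bulk tissue, fewer cells of a type and less RNA per cell cannot be told apart.

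**Figure D2:**
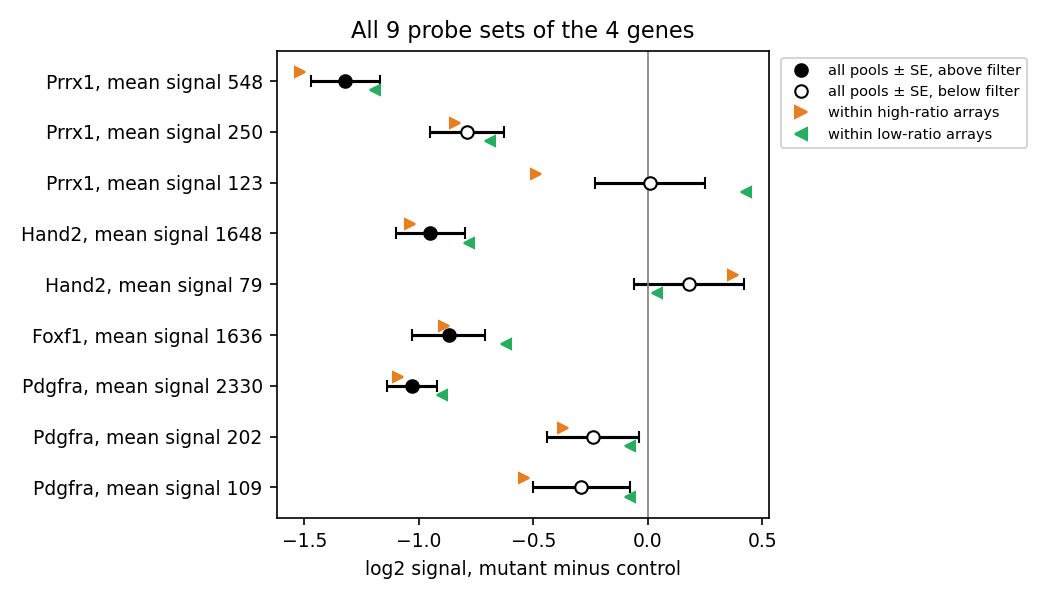
Log2 difference, mutant minus control, for the 9 probe sets, labelled by gene and mean signal. Circles with bars show all 6 pools with the SE (filled above the filter, open below), and triangles show differences within the high-ratio and low-ratio arrays. The 4 filled circles lie between −1.32 and −0.87, and the dimmest probe sets lie near 0.

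Within a genotype the pools did not order the 4 genes in one way. Mutant pool 1 was the lowest mutant pool for all 4 main probe sets, while the lowest control pool was pool 2 for Prrx1, pool 3 for Hand2 and Pdgfra, and pool 1 for Foxf1. Pearson's r between pairs of the genes lay between 0.914 and 0.97 over the 6 pools, which include the genotype difference they were chosen for. With the genotype means removed it lay between −0.108, for Prrx1 with Pdgfra, and 0.655, for Hand2 with Pdgfra, as a description of 6 arrays that share their scaling and spike-in split.

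The genes most like each one over the 6 pools, by Pearson's r among 7129 genes, also carry the genotype difference. Rpp14, a subunit of ribonuclease P, had r = 0.997 with Prrx1, the insulin receptor gene Insr 0.996, and Atf2, a transcription factor that binds CRE-like sites, 0.993. Pop4, another ribonuclease P subunit, had 0.994 with Hand2, Phf20l1, which holds a PHD finger, 0.989 and the ciliary transport gene Ift140 0.988. For Foxf1 they were Parp2, a poly(ADP-ribose) polymerase, with 0.995, the RNA-binding gene Mex3b with 0.992 and Fbxo30 with 0.991. For Pdgfra they were Lcmt2 with 0.999, Dgcr6 with 0.996 and Rrm1, the large subunit of ribonucleotide reductase, with 0.994. None of these 12 is on a list used here. Their log2 differences ranged from −1.25 for Dgcr6 to −0.27 for Atf2.

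The ligand gene Pdgfa was higher in mutant pools, and a link with the lower values of the receptor gene Pdgfra was not tested. By limma with Benjamini-Hochberg adjustment over 7245 genes, Pdgfa, which encodes the PDGF-A chain, rose by 0.55 (SE 0.11, adjusted p = 0.0428). It read 4727, 4905 and 5021 in mutant pools, against 2892, 3563 and 3618 in control pools, and the groups did not overlap. Among all genes 0.594% rose and 1.10% fell at this threshold. The call was close to the threshold: adjusted over the 11731 probe sets in place of genes it was 0.0733, and a second Pdgfa probe set, with 2117, 2406 and 3142 in mutant pools and 1166, 2110 and 2183 in control pools, overlapped (0.52, SE 0.23, adjusted p = 0.388 over probe sets, limma). It was lost under 7 of 19 alternative settings, with log2 differences of 0.44 to 0.61 throughout.

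Pdgfc, the gene of the other PDGFRA ligand measured, read 1178, 1158 and 1012 in mutant pools, against 869, 757 and 816 in control pools. Its groups did not overlap in either of its 2 probe sets, with log2 differences of 0.45 (SE 0.12) and 0.48 (SE 0.16), but it did not pass (limma adjusted p = 0.109 over genes). With array quality weights it was called (0.49, limma adjusted p = 0.0103). Pdgfrb, the related receptor of pericytes and other mesenchyme, which is named after its values were seen, read 1257, 938 and 1136 in mutant pools, against 1155, 1423 and 1293 in control pools. Those groups overlapped (−0.22, SE 0.14, limma adjusted p = 0.512).

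Of 14 tested genes of PDGF signalling other than Pdgfra, Pdgfa rose, 0 fell and 13 did not pass, with a median log2 difference of −0.07, against −0.01 over all tested genes. The downstream adaptor Crk had −0.27 (SE 0.11, limma adjusted p = 0.260) and Pik3ca, a catalytic subunit of PI3-kinase, −0.26 (SE 0.13, limma adjusted p = 0.386). In 3 of the 14 genes, mutant pools lay below all control pools, against 11.5% of all genes. They were Crk, Pik3ca and Rasa1 (−0.13, SE 0.10, named after its values were seen). In 2, Pdgfa and Pdgfc, mutant pools lay above all control pools.

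**Figure D3:**
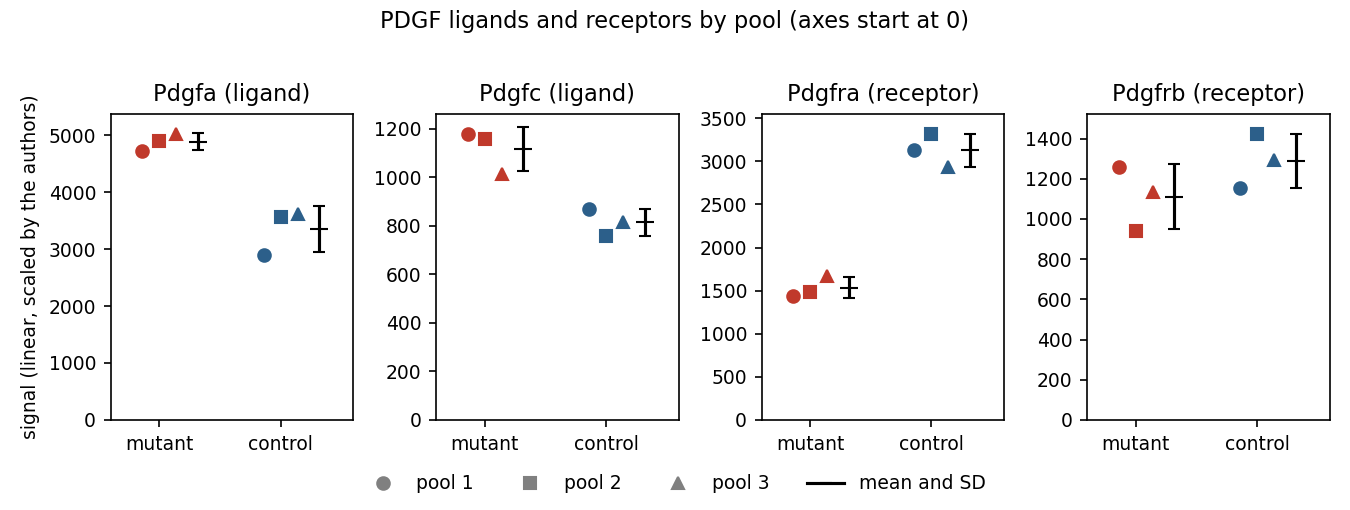
Signal of the PDGF ligand genes Pdgfa and Pdgfc and the receptor genes Pdgfra and Pdgfrb in each pool, on linear axes that start at 0, with mutant left of control and the mean and SD beside the points (n = 3). Mutant pools lie above control pools for both ligand genes, below them for Pdgfra, and overlap them for Pdgfrb. Signals of different genes are not comparable with each other.

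A list of other genes of lateral plate, heart and limb mesoderm gave no calls. Of 25 listed, 12 were in the table and 7 were tested, and by limma with adjusted p under 0.05 none rose and none fell, against 1.70% of all genes called in either direction. The median of this list was −0.03, 4 of its differences were negative and 3 positive, and both genotypes overlapped in the brightest probe set of each gene. A second, dim Tbx3 probe set, below the filter, did not overlap, with 204, 228 and 231 in mutant pools and 413, 238 and 394 in control pools (−0.61, SE 0.22). At an unadjusted p under 0.05 there were 2 of 7, where 1089 of all 7245 genes had such a p. They were Tbx3, a T-box factor of limb and heart, with 442.8 ± 83.8 in mutant and 646.6 ± 129 in control (SD, n = 3 pools each; −0.54, SE 0.19, limma adjusted p = 0.210), and the ligand gene Bmp4, with 794.5 ± 145 in mutant and 531.8 ± 176 in control (0.62, SE 0.24, limma adjusted p = 0.258). Isl1, a LIM homeobox factor of heart precursors and hindlimb, had −0.39 (SE 0.19), Gata6 −0.21 (SE 0.19), Irx3 −0.03 (SE 0.13) and Meis1 0.05 (SE 0.16). The last 3 were named after their values were seen. Bmp4 had 1.25 in the high-ratio set and 0.29 in the other, and Tbx3 −0.84 and −0.17. With the spike-in ratio as a covariate Bmp4 was called (0.77, limma adjusted p = 0.0226), and with array quality weights Tbx3 was (−0.66, limma adjusted p = 0.0217).

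No mesenchyme gene passed the test. Of 12 tested, 10 had negative differences and the median was −0.18, while over the 19 in the table, with no filter, 10 were negative and the median was −0.03. Zeb2, a repressor of the epithelial state, had the lowest p and the only groups of this list that did not overlap, with 508, 354 and 483 in mutant pools, against 632, 717 and 578 in control pools (−0.53, SE 0.17, limma adjusted p = 0.168). Fibronectin, Fn1, had −0.36 (SE 0.18), Snai2, another such repressor, −0.33 (SE 0.18), and the limb and head homeobox gene Msx1 (named after its values were seen) −0.44 (SE 0.28). Twist1, a basic helix-loop-helix factor that can dimerise with Hand2, had −0.03 (SE 0.22, also named after its values were seen). Without control 1, 1 mesenchyme gene was called, Msx1 (−0.81, limma adjusted p = 0.0294), and with array quality weights 2 were, Msx1 (−0.85, adjusted p = 0.00838) and Fn1 (−0.41, adjusted p = 0.0480).

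Genes that work with Hand2 or Foxf1 gave no calls. Of 7 tested partners of Hand2, 0 passed, and their median was 0.03. The inhibitors of helix-loop-helix factors Id2 and Id1 had 0.23 (SE 0.12) and 0.23 (SE 0.13), and the dimer partner Tcf3 had −0.21 (SE 0.14). The splanchnic list had 2 tested genes, Bmp4 and Ptch1, the Hedgehog receptor and target, which had −0.01 (SE 0.15), with 8035 ± 1610 in mutant and 7992 ± 723 in control (SD, n = 3 pools each). The 1 tested gene of intermediate mesoderm, Osr1, had a log2 difference of 0.00 (SE 0.25). Over the 6 lists of lateral, intermediate and splanchnic mesoderm, mesenchyme, PDGF signalling and Hand2 partners, 41 genes were tested, 1 rose and 0 fell, and 4 had mutant pools below all control pools, against 11.5% of all genes. At an unadjusted p under 0.05, limma gave 3 lower and 3 higher, again beside 1089 of 7245 over all genes. With 3 pools per genotype, the median SE over probe sets was 0.14.

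**Figure D4:**
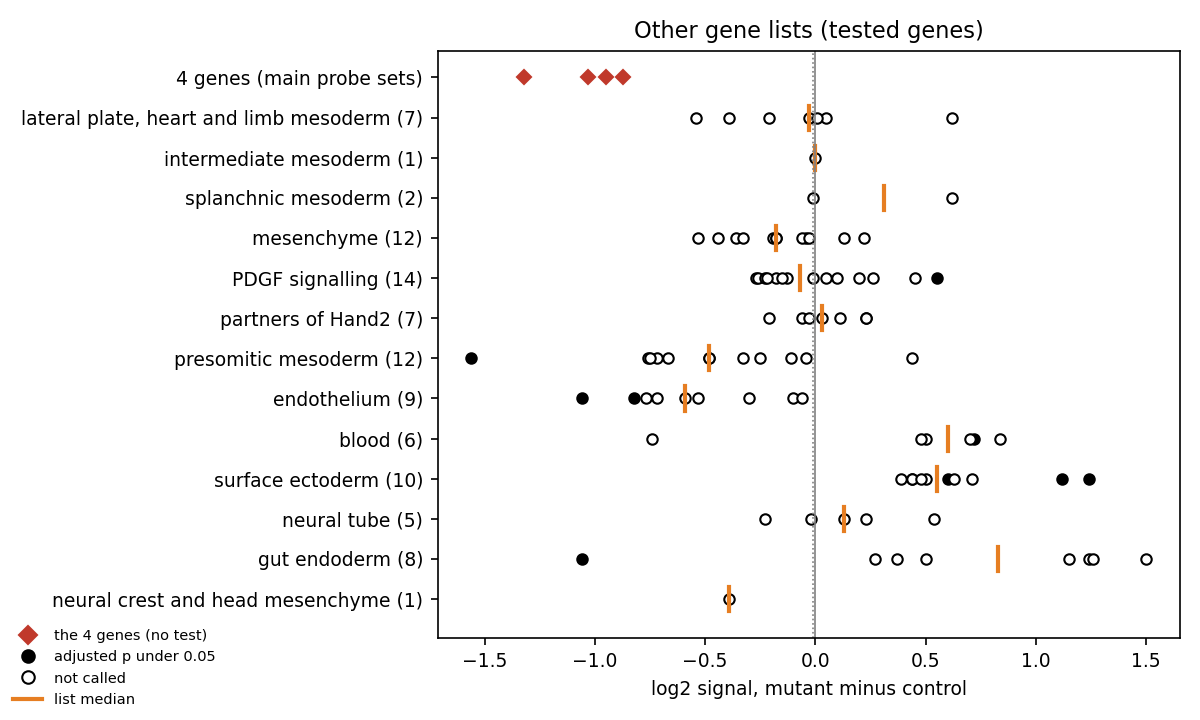
Log2 difference, mutant minus control, for the tested genes of each list, with the number tested in brackets. Red diamonds are the main probe sets of the 4 genes, which carry no test, filled circles passed an adjusted p under 0.05, open circles did not, and orange bars are list medians. The lateral plate list scatters around a median of −0.03, while the 4 genes lie between −1.32 and −0.87. The 4 genes were chosen for lower values in mutant pools, so nothing is read from their distance to the lists.

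As a check of the labelled tissue, the presomitic mesoderm markers Dll1, a Notch ligand gene, and Hes7, a segmentation clock gene (named after its values were seen), were read in every pool. Dll1 had 1743, 1590 and 2844 in mutant pools and 3089, 3497 and 3267 in control pools, and Hes7 had 773, 882 and 988 in mutant pools and 1067, 1036 and 1032 in control pools. Of 15 such markers measured, 12 passed the filter, as did 7245 of all 10290 genes, and Mesp1, Mesp2 and Lfng did not. Ripply2, which sets the somite boundary, fell (−1.56, SE 0.14, limma adjusted p = 0.000622), and 11 did not pass. Next by p were Tbx6 (−0.76, SE 0.18, limma adjusted p = 0.0617), Dll1 (−0.72, SE 0.19, adjusted p = 0.0937) and Cited1 (−0.48, SE 0.15, adjusted p = 0.155). In 5 of the 12 all mutant pools lay below all control pools, against 11.5% of all genes, and in 1 they lay above. Without control 1, 3 of the markers fell, and without mutant 3, 4 did. The list had a median of −0.48, with 11 negative differences and 1 positive, that of Aldh1a2 (0.44, named after its values were seen), and a summed signal of 12118 to 16637 in mutant pools, against 18440 to 21406 in control pools. Endothelial markers had a median of −0.59 over 9 tested, of which Kdr and Sox17 fell, against 1.10% of all genes. In 7 of the 9 all mutant pools lay below all control pools, against 11.5% of all genes. Their summed signal was 6511 to 9465 in mutant pools, against 11781 to 12775 in control pools. Sox17 read 321, 215 and 328 in mutant pools, below the signal at the filter, which it passed through its control pools. At the 60th percentile filter Ripply2, Kdr and Sox17 were not tested, and 0 presomitic and 0 endothelial markers were called. Without mutant 1, mutant 2 or control 2, 0 endothelial markers were called, and Sox17 had a limma adjusted p of 0.0791, 0.0908 and 0.0797 in these fits and 0.0688 without control 3. Without control 1, 4 endothelial markers fell.

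Surface ectoderm markers had a median of 0.55 over 10 tested, of which Epcam, Krt19 and Perp rose, against 0.594% of all genes. In each of the 10 all mutant pools lay above all control pools, a pattern that was not counted over all genes. Their sums were 25479 to 27160 in mutant and 17050 to 19067 in control. Without mutant 1, mutant 2 or control 2, 0 surface ectoderm markers were called, and without control 3 there was 1. Without control 1 there were 5, and with the spike-in ratio as a covariate there were 9. The highest limma adjusted p in any alternative was 0.105 for Epcam, 0.134 for Krt19 and 0.165 for Perp. Blood markers had a median of 0.60 over 6 tested, with 44712 to 63206 in mutant and 32188 to 44741 in control, and Car2 rose. Split by spike-in ratio, the blood median came to 0.91 for the high-ratio set but 0.04 for the low-ratio set. Mutant 3 is the only mutant pool of the low-ratio set. For Car2 the values were 0.87 and 0.44, and for Hba-x 1.70 and 0.01. The Car2 call was lost without mutant 1 (limma adjusted p = 0.190), mutant 2 (0.184), control 2 (0.124) or control 3 (0.082) and without the intensity trend (0.0507), and without mutant 3, 4 blood markers rose. Tal1, a transcription factor of early blood cells (named after its values were seen), had −0.74 with mutant pools below all control pools (limma adjusted p = 0.141). Gut endoderm markers had 0.83 over 8 tested, of which 0 rose and Sox17 fell, by the same probe set that the endothelial list counts. Their sums were 8812 to 29705 in mutant and 5275 to 11231 in control. The highest sum was that of mutant 1, where Ttr read 11528, against 3458 and 2405 in mutants 2 and 3. In control pools Ttr read 3857, 876 and 2073. With replicate number as a block 4 of the list rose, with array quality weights 5, with the spike-in ratio as a covariate 2 and without control 1, 1. Without probe sets named _x_at or _s_at, 0 of the list fell, and 1 endothelial marker did. The neural tube list had 5 tested genes, none called and a median of 0.13. In the list of neural crest and head mesenchyme, where Prrx1 is also active, Ets1 alone was tested (−0.39, SE 0.18, limma adjusted p = 0.354). The part of these lists in the lower values of Prrx1, Hand2, Foxf1 and Pdgfra was not tested. None of these tested markers was at 0 in any pool. That does not show that each was detected, because tested genes had passed a filter on mean signal.

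Genes next to the 4 on their chromosomes, by RefSeq order in GRCm38.p6, mostly had differences near 0. The 3 nearest tested genes on each side gave 24 neighbours, of which 1 fell and 0 rose, with a median of −0.03. The 1 was Kdr, the main VEGF receptor of endothelium and blood precursors, which lies beyond Kit on the same side of Pdgfra. Kdr read 404, 381 and 381 in mutant pools, against 761, 675 and 634 in control pools, and its log2 difference of −0.82 (SE 0.14, limma adjusted p = 0.0154) kept its call under 15 of 18 alternative settings. Kit, the stem cell factor receptor gene between them, read 711, 676 and 830 in mutant pools, against 547, 915 and 937 in control pools, and overlapped (−0.08, SE 0.20, limma adjusted p = 0.904). On the other side of Pdgfra, Chic2 had −0.03 (SE 0.11).

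Beside Foxf1 the nearest tested genes were Cox4i1, a subunit of cytochrome c oxidase, with −0.01 (SE 0.11), and Foxc2, another forkhead gene, active in paraxial mesoderm. Foxc2 had −0.75 with an SE of 0.31, groups that overlapped and a limma adjusted p of 0.274. Beside Hand2 they were Fbxo8, with −0.33 (SE 0.15, limma adjusted p = 0.340), and Sap30, a subunit of a histone deacetylase complex, with −0.05 (SE 0.10). Beside Prrx1 they were Prrc2c, with 0.04 (SE 0.21), and Kifap3, a kinesin-associated protein, with −0.02 (SE 0.11).

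**Figure D5:**
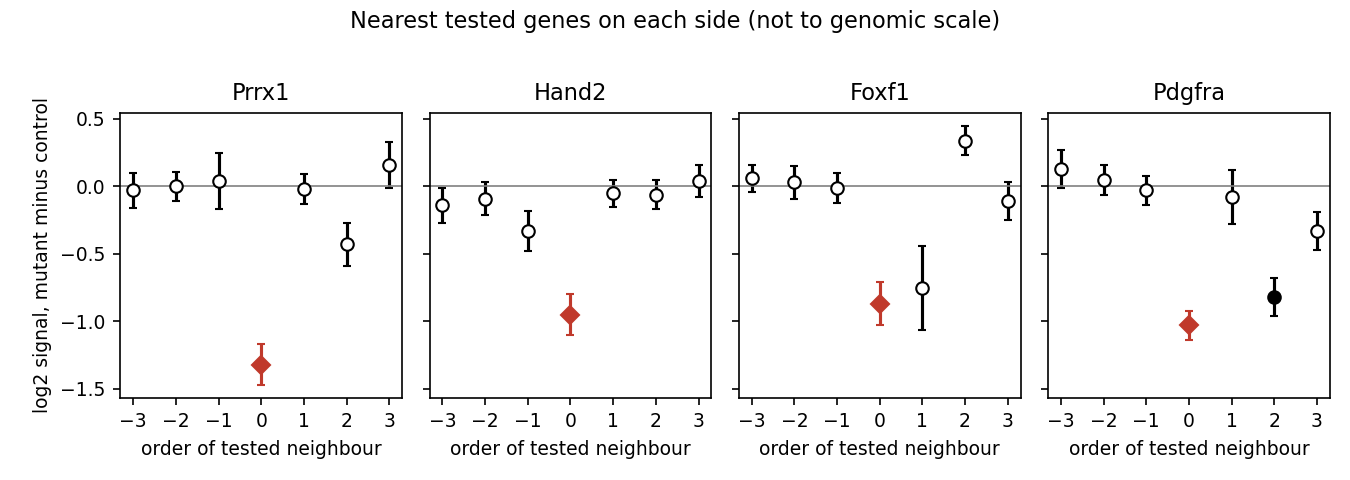
Log2 difference, mutant minus control, with the SE (n = 3 pools per genotype), for each of the 4 genes (red diamond at 0 on the x axis) and its 3 nearest tested genes on each side, in chromosome order and not to scale. The filled circle passed an adjusted p under 0.05 and is Kdr, beside Pdgfra; open circles did not.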

How the data were processed

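The authors deposited summarised, scaled linear signal intensities of probe sets, and Affymetrix Expression Console and MAS5 are named in the submitters' processing notes; versions, scaling target and genome build are not given in the sources used here. Medians per array were 491 to 535. Of 19606 probe sets, 55 array controls were left out, and 17348 of the other 19551 had exactly 1 gene symbol, 494 several and 1709 no listing. Of those with 1 symbol, 17316 had an Entrez identifier in RefSeq GRCm38.p6, and 0 symbols were replaced. MAS5 signals were taken as log2(signal + 1). Probe sets below the 40th percentile of mean log2 signal were left out, leaving 11731, and each gene was its brightest remaining probe set with 1 symbol, giving 7245. Estimates and SEs of the 4 genes come from the same model over all 19551 probe sets. Genotypes were compared with limma 3.58.1 in R 4.3.3 (with an intensity trend; two-sided; calls at a Benjamini-Hochberg adjusted p under 0.05), a script tested on simulated data. The 4 genes and the lists were chosen with earlier results of these data known. Named were all probe sets of the 4 genes, called genes of each list and up to 3 more by p, neighbours that were called or nearest, and the 3 genes most alike by r. Replicate numbers did not pair the pools: residual r of equal numbers was 0.20, −0.45 and 0.37. Alternatives varied scaling, offset, filter, trend, weights, covariates, probe sets and threshold, and left out each pool.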

Additional observations from a re-analysis of the deposited data

How the results depend on the processing

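The log2 differences of the 4 main probe sets were negative in all 84 values from 21 alternative settings, between −1.52 and −0.62, and 80 of them lay within 1 SD of the value reported. The exceptions were Prrx1 at −1.17 with an offset of 64 and −1.52 within the high-ratio arrays, and Foxf1 at −0.62 and Pdgfra at −0.90 within the other arrays. Settings of the filter, intensity trend, replicate block, p threshold and choice of probe sets could not change these values. Each value stayed that of the main probe set, so averaging over probe sets was not applied to the 4 genes. The shared sign is no support, because the genes were chosen for being lower. With 1 pool left out, Prrx1 ranged from −1.41 to −1.23, Hand2 from −1.04 to −0.78, Foxf1 from −1.02 to −0.76 and Pdgfra from −1.09 to −0.98. The lateral plate list had 0 calls in either direction, with 1 lower under array quality weights and 1 higher with the spike-in ratio as a covariate, and 0 in each fit with 1 pool left out or with the replicate block.

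Counts over the whole table depended more on the setting. Against 80 lower and 43 higher genes and 52 lower probe sets, the 60th percentile filter gave 51, 23 and 34, array quality weights 541, 402 and 670, the spike-in ratio as a covariate 270, 202 and 313, and adjusted p under 0.1 gave 170, 100 and 155. Without a filter 72 genes were higher, and with the replicate block 74 were. With 1 pool left out, the counts were 13 to 140 lower and 7 to 88 higher genes and 13 to 93 lower probe sets, lowest without mutant 1. The causes were not tested. Pdgfa was not called without control 2 (limma adjusted p = 0.0797), control 3 (0.102), mutant 1 (0.145), mutant 2 (0.156) or mutant 3 (0.0703), without the intensity trend (0.0609) or with its probe sets averaged (0.168). Kdr was not called without mutant 1 (limma adjusted p = 0.0729), mutant 2 (0.0889) or control 2 (0.0506).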

Other observations

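Below the filter lay 24 further genes of the 6 lists of mesoderm, mesenchyme and signalling, named here after their values were seen. By limma without a filter, 0 of them were called, and their log2 differences ran from −0.72 to 1.08. The lowest was Pdgfd, a ligand gene of the PDGF-B receptor, with 94.1, 88.9 and 85.8 in mutant pools, against 189, 131 and 130 in control pools (SE 0.21, limma adjusted p = 0.137). The highest was Postn, which encodes the matrix protein periostin, with 477, 219 and 153 in mutant pools, against 123, 117 and 116 in control pools (SE 0.33, limma adjusted p = 0.150). The paralogues of Prrx1 and Foxf1 were dim: Prrx2 had 0.24 (SE 0.20) and Foxf2 −0.36 (SE 0.20), each with overlapping groups. The intermediate mesoderm factor Lhx1 read 368, 363 and 325 in mutant pools, against 284, 243 and 258 in control pools (0.43, SE 0.15, limma adjusted p = 0.212), and Pax8 read 108, 82.7 and 79.1 in mutant pools, against 64.8, 55.8 and 55.9 in control pools (0.59, SE 0.23, limma adjusted p = 0.244).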
